A study of Mus musculus with 9 samples.

Results

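Some stretches of the mouse genome yielded several peaks of RNA crosslinked to subunits of Polycomb repressive complex 2 (PRC2) in each of the 4 libraries analysed. These stretches were taken as windows of 50 kb, read on each strand separately from position 0 of each chromosome (mouse build mm9). They were chosen by the number of peak summits: a member had 2 or more summits in each of these libraries. The rule gave 370 members, 2.19% of the 16871 stranded windows that held any summit, and together they held 5000 of 49266 peaks. Because the counts chose the members, the counts themselves are given as a description and without a test.

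The libraries came from dCLIP, in which a biotin-tagged protein is crosslinked to RNA by ultraviolet light and captured on streptavidin, so that stringent washing leaves mainly crosslinked fragments. All came from female EL 16.7 embryonic stem cells (strain CAST/Ei x 129/Sv/Jae) after 7 days of adherent differentiation, with stable expression of the biotin ligase BirA. The EZH2 group carried Avi-GFP-mEzh2 (clones 4A and 5A) and the SUZ12 group Avi-GFP-mSuz12 (clones 8E and 8H), 2 libraries each, and each library was 1 stable clone that expressed a tagged transgene. The mock library, from cells with BirA and an empty vector (clone 2H), and 4 PRO-seq libraries, 2 wild-type and 2 SUZ12-degron, were not analysed here, so no background level stands beside the values below.

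PRC2 methylates histone H3 at lysine 27 and keeps developmental genes silent. EZH2 is its catalytic subunit and SUZ12 a scaffold that holds the complex together. The complex binds RNA widely, with a known preference for G-rich sequence and for G-quadruplex folds, and RNA binding and chromatin binding are thought to compete. A dCLIP peak marks RNA near the protein at the moment of crosslinking. It depends on how much of that RNA the cell makes as well as on how tightly it is bound, and these cannot be told apart in peak lists. Windows are named by coordinates here and were not assigned to genes, and no sequence was used.

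EZH2 replicate 1 had 10468 peaks over the whole genome and replicate 2 had 13267, while SUZ12 replicate 1 had 11580 and replicate 2 had 13951. Members held 1156 of the EZH2 replicate 1 peaks (11.0%, 95% Wilson interval 10.5 to 11.7%) and 1252 of those of replicate 2 (9.44%, 8.95 to 9.95%). For SUZ12 they held 1345 peaks of replicate 1 (11.6%, 11.0 to 12.2%) and 1247 of replicate 2 (8.94%, 8.48 to 9.42%). Such intervals cover counting error only. The mean share was 10.2 ± 1.14% (SD, n = 2) for EZH2 and 10.3 ± 1.89% for SUZ12, so the proteins differed by less than their clones did (two-sided exact permutation p = 1, where 2 against 2 libraries cannot go below 0.333).

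A typical member held 3 summits per library, the median in each of the 4, and 12 in all. Mean summits per member were 3.12 and 3.38 with EZH2 and 3.64 and 3.37 with SUZ12. Most members sat at the limit, with 270 reaching a minimum of 2, another 63 a minimum of 3, and 37 a minimum of 4 or more. Within a member the library with most summits had a median of 2 times as many as the library with fewest, and at most 4 times. The highest was at least 3 times the lowest in 43 members, and 18 members had the same number in all libraries. Members just inside the limit, those with a minimum of 2, had between 8 and 19 summits in all, with a median of 11. Just outside it lay 497 windows with 2 or more summits in 3 libraries and 1 in the fourth, with a median of 9, and 225 with none in the fourth, with a median of 7.

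How far the density of a member carried over to a library that had no part in the choice was examined by leaving each library out of the rule in turn. Of 616 windows dense in the other libraries, 370 (60.1%, Wilson interval 56.1 to 63.9%) were also dense in EZH2 replicate 1, and 87 had no summit there. For EZH2 replicate 2 the share was 68.9% of 537 windows (64.9 to 72.7%). It was 68.5% of 540 windows for SUZ12 replicate 1 (64.5 to 72.3%) and 72.7% of 509 windows for SUZ12 replicate 2 (68.7 to 76.4%). Among all windows with a summit in any of the other libraries, only 12.8, 17.6, 14.6 and 18.6% reached 2 summits in the library left out, in the same order. A window with at least 1 summit in each of the others that did not meet the rule there reached 2 summits in 26.9, 34.6, 31.2 and 37.9% of cases. Density in the others thus went with density in the library left out, although up to 14.1% of the chosen windows had no summit in it.

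The strongest windows differed in how their summits were arranged. Overlapping peaks of the libraries within a window were merged into sites, and a site with a peak from all 4 libraries is called a common site. The window with the highest minimum, chr4:137050001-137100000 on the plus strand, had 9, 7, 8 and 8 summits in the order EZH2 replicates 1 and 2 and SUZ12 replicates 1 and 2. Those 32 summits fell on 23 sites spread over 47892 bp, and 1 was a common site, at chr4:137097363-137097785 at its 3′ end. The minus-strand window chr15:98650001-98700000 had 6, 6, 6 and 7 summits on 20 sites and no common site. Every library was dense in both. In the chromosome 4 window 17 of the 23 sites came from 1 library, 4 from 2 and 1 from 3, so part of its positions were shared.

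Other members repeated 2 or 3 of their positions in every clone. The minus-strand window chr6:122650001-122700000 had 7, 6, 11 and 4 summits on 15 sites within 14653 bp. Of these sites, 8 came from 1 library and 3 were common. The stronger ones, chr6:122679062-122679476 and chr6:122678166-122678689, carried a false discovery rate (FDR, as the authors' peak caller assigned it) no higher than 2.43e-11 and 1.38e-09 in any of the libraries. The plus-strand window chr10:80600001-80650000 had 4, 7, 5 and 6 summits, 10 sites and 3 common sites, all in its last 10 kb. In chr8:109150001-109200000, on the plus strand, 2 common sites lay at chr8:109192405-109193267 and chr8:109193939-109194165, with an FDR of at most 1.54e-09 and 1.27e-08. The libraries had 6, 6, 6 and 8 summits there, in the usual order. Windows with similar numbers of summits thus held from 0 to 3 common sites.

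**Figure D1:**
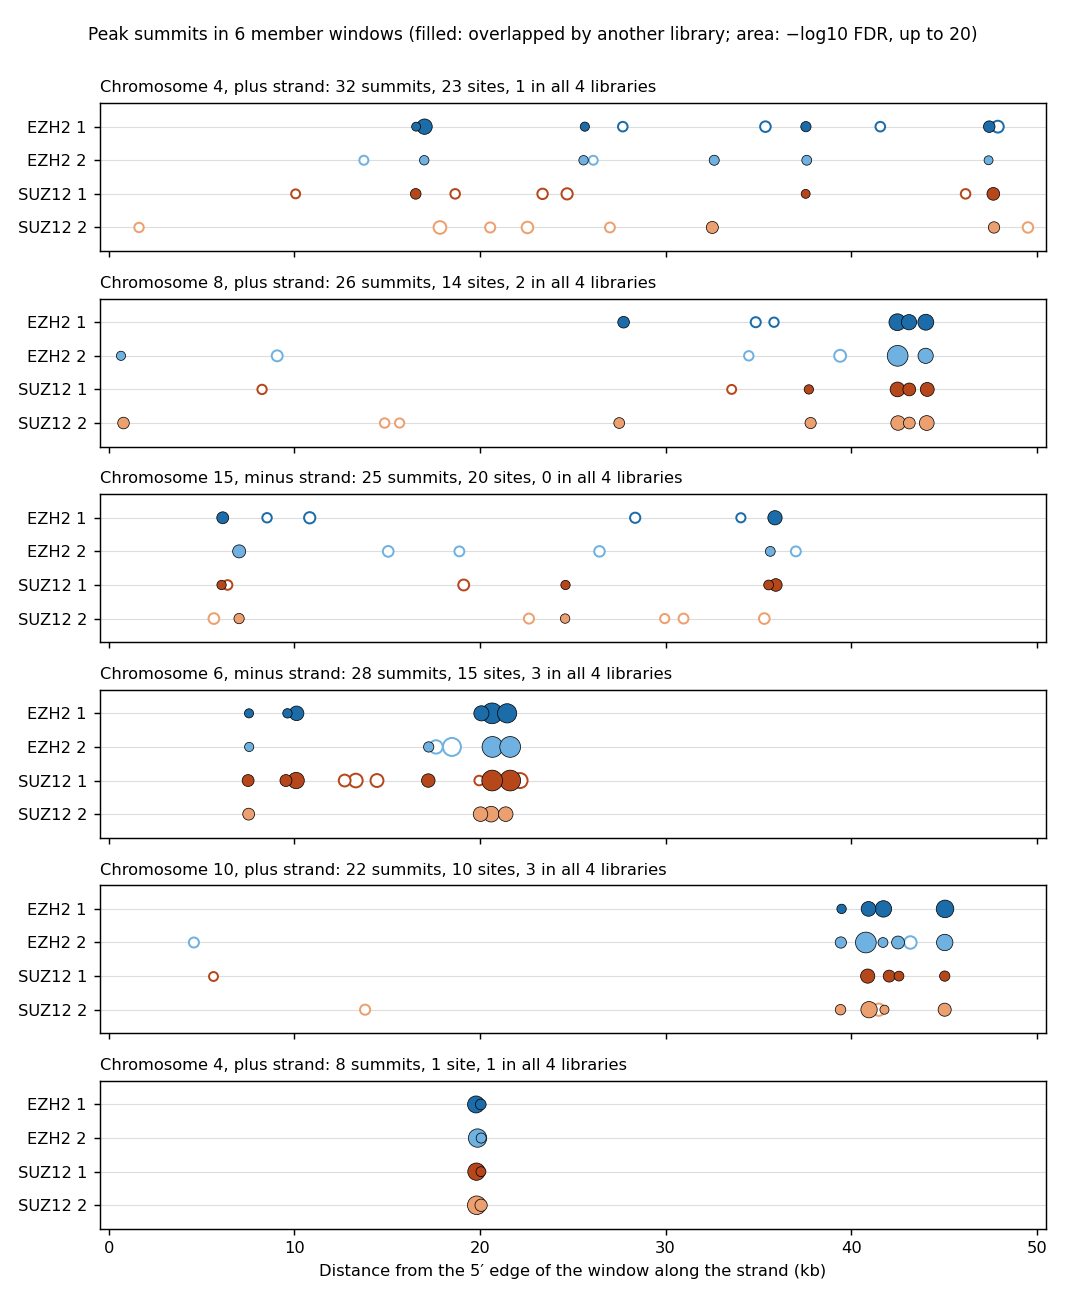
Summit positions in 6 members, 1 panel per window and 1 row per library, by distance in kb from the 5′ edge of the window along its strand. Filled points are peaks overlapped by a peak of another library on the same strand, open points are not, and the area follows −log10 FDR up to 20. Open points outnumber filled ones in the windows of chromosome 4 (32 summits), there narrowly, and chromosome 15. The windows of chromosomes 6, 8 and 10 have columns of filled points shared by all rows, and the lowest panel holds 8 summits on 1 site.

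The 37 members with a minimum of 4 or more lay on 15 chromosomes, 22 on the plus strand. Chromosome 8 had 6 of them, chromosomes 10 and 15 had 5 each, and all 5 of chromosome 15 were on the minus strand. They had between 9 and 24 sites, a median of 15, over a median span of 40469 bp. Of the 37, 21 had no common site, against 77.8% of all members. The most sites, 24, were in the plus-strand window chr6:125050001-125100000, which had 4, 8, 11 and 9 summits and 1 common site. Also among them were chr2:179900001-179950000 on the minus strand, with 4, 9, 7 and 7 summits on 23 sites and no common site, and chr15:77600001-77650000 on the minus strand, with 5, 7, 9 and 4 summits. The common site of 7651 bp in the latter rested on a single EZH2 replicate 1 peak of that width that ended on a multiple of 10 kb, so it shows no shared position.

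Members with the strongest peaks ranged from windows with 2 summits in every library to windows with 4 or more in every library. By the weakest of the 4 best FDR values, the first was the plus-strand window chr7:89900001-89950000, at 2.68e-51, with 2 summits in every library. All 8 peaks lay on 1 site, chr7:89919464-89920618. The next, chr4:78400001-78450000 on the plus strand, also had 2 summits in every library on 1 site, chr4:78419625-78420202, within 277 bp and with an FDR of at most 1.77e-13. These were the only members with a single site, and in both each library had 2 peaks on the same stretch. The third, chr17:23950001-24000000 on the plus strand, had 3, 2, 4 and 4 summits on 4 sites, with a weakest best FDR of 1.97e-13. Then came chr1:180250001-180300000 (minus strand, 5, 4, 4 and 4 summits, 5.40e-13) and chr1:89650001-89700000 (plus strand, 3, 2, 2 and 3 summits, 2.36e-12), each with 2 common sites. In all, 7 members had a peak with an FDR below 1e-10 in every library, 43 had one below 1e-05, and in 158 the weakest best FDR was above 0.001.

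Summits in members were spread out rather than piled on 1 spot. The span from first to last summit of any library had a median of 34944.5 bp, and it was under 10 kb in 19 members and over 40 kb in 121. The narrowest after the single-site windows were chr1:88200001-88250000 on the minus strand, with 2322 bp, and chr7:3200001-3250000 on the plus strand, with 2464 bp. The widest were chrX:71500001-71550000 and chr4:137150001-137200000, both on the plus strand, with 49732 and 49314 bp, and the minus-strand window chr1:183900001-183950000 with 49246 bp. Successive summits of 1 library were a median of 6966 and 6181.5 bp apart with EZH2 and of 4768 and 6665 bp with SUZ12. Between 11.1 and 12.7% of these distances were under 1 kb. When summits of a library within 500 bp of each other were counted once, 354 of the 370 members still met the rule.

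Most sites in members came from a single library, as they did in other windows. The 5000 peaks of members merged into 3934 sites, of which 3216 (81.7%) came from 1 library, 493 from 2, 130 from 3 and 95 from all 4. In the 1748 other windows with a summit in every library 86.6% of sites came from 1 library, and in the 726 windows that had 8 or more summits in all but missed the rule 88.4% did. A common site was present in 82 members, and 288 (77.8%, Wilson interval 73.3 to 81.8%) had none. The share of windows with a common site was 22.2% among members, 17.6% among the 1748 windows and 7.44% among the 726. Members held more summits per window than the 1748. Some of the 726 had no summit in 1 library and so could hold no common site. The rule thus bears on the order of these shares, which was not tested. In 55 members no peak of any library overlapped a peak of another. The 95 common sites were 23.6% of the 402 found in all windows, and their median length was 324 bp.

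A peak within a member was more often met by another library than a peak elsewhere. The rule asks for summits of every library in a member, so it bears on this direction, and the values are given without a test. On the same strand, 39.3% of the EZH2 replicate 1 peaks in members were overlapped by at least 1 bp in at least 1 other library (Wilson interval 36.5 to 42.1%), against 16.9% outside (16.2 to 17.7%). The shares were 35.5% against 14.2% for EZH2 replicate 2, 37.0% against 16.5% for SUZ12 replicate 1 and 31.4% against 14.2% for SUZ12 replicate 2. The mean difference was 20.4 percentage points. It was 12.3 points against the 726 windows of 8 or more summits, which by the rule have fewer than 2 summits in some library, and 6.77 points against the 1748 windows.

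Counted per pair of peaks the order changed. Of 27165 pairs of peaks from different libraries in the same member, 5.54% overlapped, close to the 5.06% in the 726 windows of 8 or more summits. In the 1748 other windows with a summit in every library, 10.2% of pairs did. The number of pairs in a window grows with its summits, which the rule counted, so the rule bears on this order too. Peaks found in all the other libraries were likewise no commoner in members, at 7.06 to 8.04% of their peaks, than in those 1748 windows, at 9.44 to 10.8%, as far as these ranges show. Neither comparison was tested.

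Peaks in members were slightly stronger and slightly narrower than those elsewhere. The median −log10 FDR was 3.05 inside against 2.70 outside in EZH2 replicate 1 and 3.13 against 2.78 in replicate 2. In SUZ12 it was 3.04 against 2.67 and 3.24 against 2.93. The mean difference of 0.346 was positive in 4 of 4 libraries (exact sign-flip permutation test over libraries, two-sided p = 0.125, the smallest that 4 libraries allow), and it was 0.200 against windows with a summit in every library. Median widths with EZH2 were 163 against 178 bp and 176.5 against 188 bp, and with SUZ12 they were 145 against 151 bp and 128 against 139 bp. The mean difference was -10.9 bp (exact permutation p = 0.125), and against windows of 8 or more summits it was -4.50 bp, with no difference in SUZ12 replicate 2 (p = 0.25). The part of strength or width in the overlap between libraries was not tested.

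**Figure D2:**
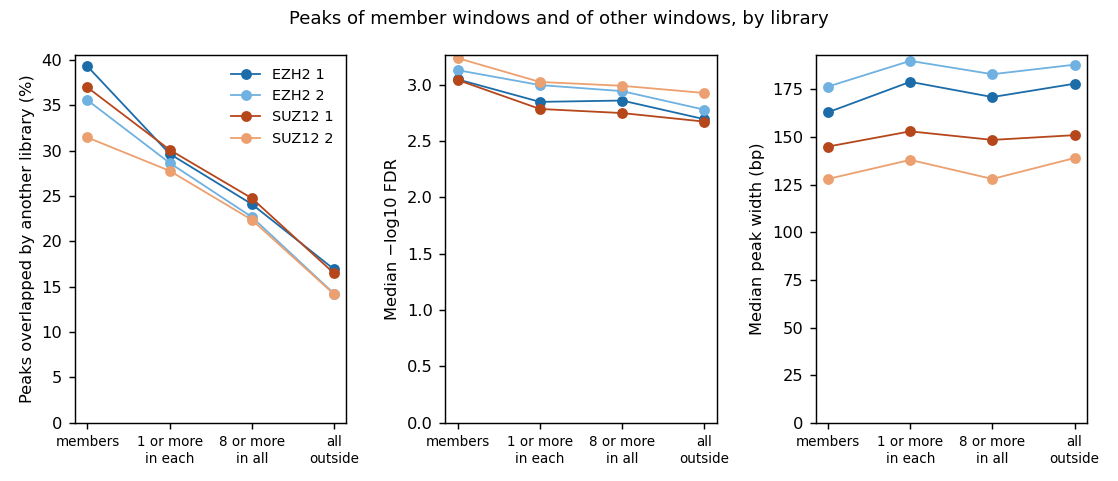
Peaks of members beside peaks of 3 other sets of windows, 1 line per library: the share overlapped by another library (left), the median −log10 FDR (middle) and the median width in bp (right). The sets are the 370 members, 1748 other windows with a summit in every library, 726 other windows with 8 or more summits in all, and all windows outside members. In all 4 libraries the members have the highest share and the highest median −log10 FDR, while EZH2 peaks stay wider than SUZ12 peaks in every set.

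Members were one-sided. On the opposite strand of the same 50 kb, the mean number of summits was 0.165 and 0.227 with EZH2 and 0.184 and 0.208 with SUZ12. That was close to the windows with a summit in every library that were not members, at 0.191, 0.201, 0.184 and 0.217. The mean difference of -0.00214 was positive in 2 of 4 libraries (exact sign-flip permutation test, two-sided p = 1), although members had far more summits on their own strand. Of the 370 members, 256 (69.2%) had no opposite-strand summit in any library and 10 had one in every library. Of the other windows with a summit in every library, 73.9% had none opposite. In 0 of the 370 was the opposite strand also a member.

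In 9 members the opposite strand held 8 or more summits in all, and the 5 described here were chosen after their values were seen. The minus-strand member chr6:122650001-122700000, described above, had 28 summits of its own facing 1, 3, 2 and 4. In chr17:34050001-34100000 the plus strand was the member, with 5, 5, 3 and 7 summits, and the minus strand had 1, 5, 1 and 4. In chr1:24600001-24650000 the minus strand had 6, 6, 3 and 3 summits and the plus strand 1, 5, 2 and 5. The plus-strand member chrX:100650001-100700000 had 2, 3, 2 and 3 summits facing 5, 3, 4 and 0 on the minus strand, which missed the rule through SUZ12 replicate 2 alone. In chr17:46350001-46400000 the minus strand, with 2, 2, 3 and 2 summits, was a member, while the plus strand, with 0, 5, 2 and 6, had more summits but none in EZH2 replicate 1.

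Summits thinned out along the strand on both sides of a member. In the window just upstream, in the sense of the strand, the libraries had means of 0.984, 1.12, 1.07 and 1.18 summits, and just downstream 0.827, 1.00, 1.00 and 1.02. At 150 kb the upstream means were 0.427 to 0.476 and the downstream means 0.451 to 0.551. At 250 kb they were 0.281 to 0.319 upstream and 0.381 to 0.416 downstream, above the mean over all windows of the assembly, 0.0986 to 0.131. The 1748 other windows with a summit in every library had 0.263 to 0.319 at 250 kb upstream, much like the members, and 0.265 to 0.310 downstream. Next to the window they had 0.604 to 0.763 upstream and 0.648 to 0.783 downstream. Around members the upstream side was the richer at 50 and 100 kb in 4 of 4 libraries. The downstream side was the richer at 150, 200, 250 and 300 kb, also in 4 of 4. Some differences were slight: in SUZ12 replicate 1 the mean downstream minus upstream was -0.0027 summits at 100 kb and 0.0081 at 300 kb. The downstream lean was partly shared. The 1748 other windows were also slightly richer downstream at 150 and 300 kb in every library. At 200 kb SUZ12 replicate 2 went the other way there, and at 250 kb only EZH2 replicate 1 was richer downstream. These differences were not tested, and no window was tied to a transcript's start or end.

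**Figure D3:**
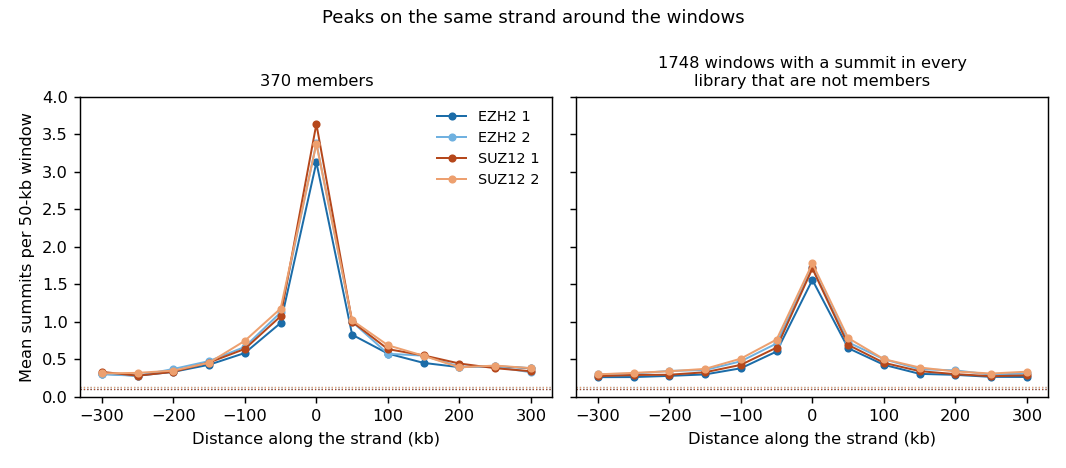
Mean number of summits per 50-kb window on the same strand, by distance in kb from the window (negative: upstream), for the members (left) and for the 1748 other windows with a summit in every library (right), 1 line per library. Dotted lines are the means over all windows of the assembly. The members' peak of 3.12 to 3.64 summits drops to about 1 in the adjoining windows on both sides.

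The grid cut some dense stretches into several windows. The 370 members formed 332 separate stretches, with 297 members standing alone, 32 pairs and 3 runs of 3, so neighbouring members are not independent of each other. The run on the plus strand at chr4:137050001-137200000 held 17, 16, 17 and 19 summits. At chr12:110750001-110900000, also on the plus strand, 13, 12, 19 and 15 summits were found, and a further member, chr12:110950001-111000000, with 7, 3, 9 and 3, lay beyond a window that missed the rule. The first window of this chromosome 12 run had a common site at chr12:110786813-110787175, with an FDR of 1.44e-21, 5.74e-17, 7.27e-28 and 1.68e-06 in the usual order. The following windows had 19 and 16 sites and no common site. The third run, chr8:86400001-86550000 on the plus strand, held 11, 13, 17 and 10 summits and no common site in any of its windows.

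Chromosomes differed in how readily their windows became members. Chromosome 8 had the most, 39 of the 915 windows with a peak (4.26%), followed in share by chromosome 10 with 29 of 802 (3.62%), chromosome 17 with 24 of 726 (3.31%) and chromosome 6 with 29 of 951 (3.05%). Apart from chromosome Y, which had 0 members among 2 windows with a peak, the lowest shares were those of chromosome 13 with 5 of 685 (0.730%), chromosome 16 with 5 of 570 (0.877%) and chromosome 3 with 7 of 774 (0.904%). Over the assembly the share was 2.19%. Members were on the plus strand in 214 cases (57.8%), against 50.9% of the windows with any peak. All 7 members of chromosome 3 and all 7 of chromosome 18 were on the plus strand, as were 11 of 13 on chromosome 12, while chromosome 15 had 10 of 15 on the minus strand. These are descriptions, since adjoining windows can share a transcript.

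**Figure D4:**
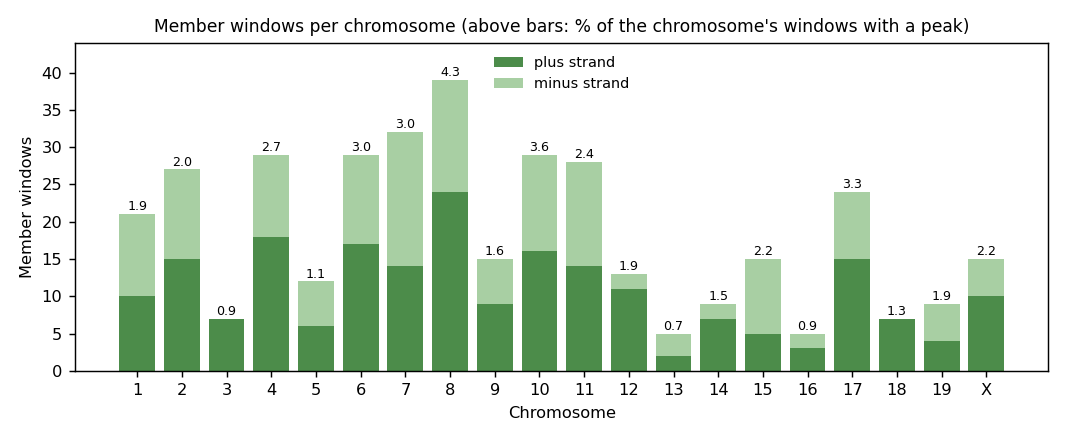
Number of member windows per chromosome, split into plus (dark) and minus strand (light). The percentage over each bar is the share of the chromosome's windows with a peak that were members. Chromosome 8 stands highest with 39, and chromosomes 13 and 16 lowest of those drawn with 5 each. Chromosome Y, with 0 members, is not drawn.

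Chromosome X, of which 1 copy is silenced and gains the PRC2 mark as female cells differentiate, had 15 members, 10 on the plus strand. This was 2.16% of its 696 windows with a peak, near the share of the assembly, whereas members were sparse for its length, at 9.00 per 100 Mb against 13.9 overall. They held 40, 50, 47 and 50 peaks. The leading one, chrX:98850001-98900000 on the plus strand, had 4 summits in each library on 11 sites and no common site, and its neighbour chrX:98800001-98850000 had 3, 2, 2 and 2. Next came chrX:71450001-71500000 (minus strand, 3, 3, 6 and 3), chrX:20250001-20300000 (plus strand, 3, 4, 4 and 3) and chrX:12700001-12750000 (plus strand, 3, 4, 3 and 3). Then, with the same minimum of 2 and sum of 15, came chrX:98450001-98500000 on the plus strand (3, 2, 4 and 6) and chrX:103000001-103050000 on the minus strand (2, 5, 6 and 2). A common site was present in 3 of the 15, near the 22.2% of all members. The strongest of these, chrX:103046433-103046683 on the minus strand, had its weakest FDR at 3.40e-06. No opposite-strand peak was found in 14 of the 15, against 69.2% of all members, a difference that was not tested on so few windows.

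Giemsa bands divide chromosomes into light bands, known to be rich in genes and early to replicate, and dark bands, which are poorer. The centre of the window lay in a light band for 206 members (55.7%). The share was 48.3% in the other windows with a summit in every library, 46.9% in all windows with a summit and 40.7% over the assembly. The darkest class of band held 54 members (14.6%), against 21.2, 22.6 and 31.5% in the same order. Bands are several Mb long and members cluster, so these shares carry no test.

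Finally, members were compared between the proteins, a contrast the rule did not use although it limits how far a member can differ. Summits were scaled to the length of each list, and all 4614 windows with a mean of at least 1 summit were fitted with limma, all members among them. 0 members passed a limma adjusted p of 0.05, against 0% of all windows tested (0 of 4614), and the smallest adjusted p was 0.855. At an unadjusted p under 0.05 there was 1 member (0.270%), against 4.27% of all windows tested. After scaling, both SUZ12 libraries lay above both EZH2 libraries in 43 members (11.6%, against 12.1% of all windows). Both EZH2 libraries lay above both SUZ12 libraries in 57 (15.4%, against 17.4% of all windows). Scaling alone can separate the groups: the plus-strand window chr12:114350001-114400000 was among the 57 with 4 and 5 summits in either protein. The median log2 difference, SUZ12 minus EZH2, was -0.11 in members and -0.11 in all windows. Scaling gives the same -0.11 to a member with 2 summits in every library, so it shows no excess in EZH2.

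The largest differences rested on few summits. Highest in EZH2 was the minus-strand window chr1:183900001-183950000, with 7 and 6 EZH2 summits and 2 and 3 SUZ12 summits, a log2 difference of -1.35 ± 0.57 (SE, limma adjusted p = 0.855). It was followed by chr10:77450001-77500000 on the minus strand (6 and 5 against 3 and 2), chr12:110000001-110050000 on the plus strand (4 and 5 against 2 and 2) and chr6:33400001-33450000 on the plus strand (6 and 3 against 2 and 2), at -1.12, -1.10 and -1.04, the last of which the minus-strand window chr11:96650001-96700000 (3 and 6 against 2 and 2) equalled. Highest in SUZ12 was the plus-strand window chr1:182800001-182850000, with 2 and 2 EZH2 and 3 and 8 SUZ12 summits, at 1.02 ± 0.61 (SE). The minus-strand window chr8:8650001-8700000 (2 and 2 against 6 and 4) followed at 1.00. Then came the plus-strand windows chr13:113250001-113300000 (2 and 2 against 4 and 5) and chr12:110850001-110900000 (5 and 3 against 9 and 7), at 0.88 and 0.83. All 9 had groups that did not overlap after scaling, and a limma adjusted p of 0.855. The 95% interval of a member's difference had a median half-width of 1.22 on the log2 scale, or 2.32-fold, so differences of about 2-fold in single members were not detectable from these counts. That interval is not adjusted for the 4614 windows tested, so larger differences can also go uncalled. In simulated counts for these 4614 windows, not members alone, the fit called 0 of 50 windows changed 2-fold. It called 6% of those changed 4-fold, 20% at 8-fold and 44% at 16-fold, so most changes of up to 16-fold were missed there.

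**Figure D5:**
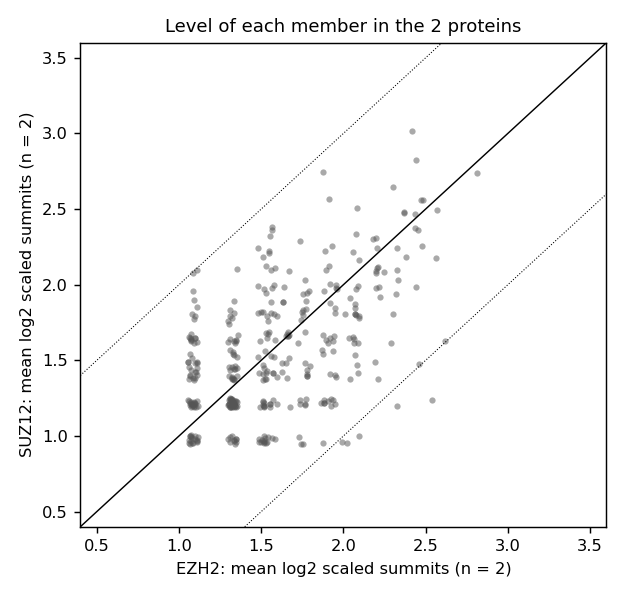
Level of each of the 370 members in SUZ12 (vertical) against EZH2 (horizontal), as the mean over 2 libraries of log2 summits scaled to list length, with points shifted slightly at random so that equal values show. The solid line marks equality and the dotted lines a log2 difference of 1. All but 8 members lie within the dotted lines.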

How the data were processed

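Per the labels, 9 samples were made: 2 EZH2, 2 SUZ12 and 1 mock dCLIP library and 4 PRO-seq libraries. The 8 peak lists analysed here, 1 per EZH2 or SUZ12 library and strand, give each peak's position and summit and, from the authors' caller, a p-value and FDR. Peak names carry the prefix of PeakRanger. Its version, settings and control are not given in the sources used here. Per the submitters' processing notes, the tools were TopHat2 2.0.8, Trim Galore 0.3.3, bedtools 2.17.0 and SAMtools 0.1.18, and the build mm9. Replicates were not pooled. Read depth cannot be seen in peak lists.

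Summits were counted in windows of 50 kb. For the protein comparison, log2((summits + 0.5) / (summits in the library + 1)) was fitted with limma 3.58.1 (R 4.3.3), two-sided, with Benjamini-Hochberg adjustment over all windows tested. Other tests were exact permutation tests over libraries. Python 3.11.15, NumPy 2.4.6, pandas 2.3.3 and SciPy 1.17.1 were used, chromosome lengths came from GenomeInfoDb 1.38.1 and mm9 bands from circlize 0.4.16. The overlap step and the limma fit were checked on simulated data.

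The members and the rules were chosen with earlier results of these data known. Windows were named by the highest minimum over libraries, the longest runs, the largest protein differences, the highest minimum on X, the lowest weakest best FDR and the extremes of span. The gene table at hand was of GRCm38 and not of mm9, so genes were not named and sequences were not used here.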

Additional observations from a re-analysis of the deposited data

How the results depend on the processing

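The number of members depended on the grid and the lists. It was 182 with windows of 25 kb, 680 with windows of 100 kb, 97 when only the 50% of peaks with the best FDR in a list were kept and 100 with 3 or more summits in each library. Leaving out a library, which relaxes the rule, gave 509 to 616, with the highest value without EZH2 replicate 1. It was 365 on a grid shifted by 25 kb, where 243 of the 370 were overlapped by a shifted member, 271 with lists of equal length, 354 with summits within 500 bp counted once and 370 with peak midpoints.

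The differences between members and other windows ranged from 0.200 to 0.336 in strength and from -11.9 to -4.50 bp in width. That in overlap, whose direction the rule bears on, ranged from 6.77 to 21.8 points. Of these, strength without the strongest peak (0.315) and summits within 100 bp against windows of 8 or more (11.8 points) were chosen after seeing the data, and the former depends on peak numbers the rule used. The opposite-strand difference, members minus others, was -0.0120 against windows of 8 or more summits and -0.0211 on the shifted grid, negative in 4 of 4 libraries in both (exact permutation p = 0.125, against p = 1). With a library left out it ranged from -0.00787 to 0.0306, and was 0.0230 without EZH2 replicate 1 and 0.0306 without SUZ12 replicate 2. The protein difference in the share of peaks, here EZH2 minus SUZ12, -0.0366 percentage points, turned to 0.0288 on the shifted grid and 0.0351 with the lowest-FDR lists, and ranged from -1.65 to 1.79 when a library was left out, with 1.23 without EZH2 replicate 2 and 1.79 without SUZ12 replicate 1. The causes were not tested.

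In limma, none of 11 alternatives gave a window with an adjusted p under 0.05, and 28 to 307 windows were at an unadjusted p under 0.05. With the replicate block 0 windows passed, and 184 had an unadjusted p under 0.05 against 197 without it. The replicate numbers only name libraries: deviations of same-numbered libraries correlated at 0.0525 across windows. Median centring moved the median log2 difference (SUZ12 minus EZH2) of all windows from -0.11 to -0.37. With the lowest-FDR lists the differences of chr13:113250001-113300000 and chr1:182800001-182850000 reversed, to -0.90 and -0.70.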

Other observations

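Some windows with many summits missed the rule through 1 library. Plus-strand window chr4:140250001-140300000 had 6, 1, 9 and 6 summits (EZH2 first, then SUZ12, replicate 1 before 2), more in all than most members. Plus-strand window chr12:111850001-111900000 had 1, 7, 4 and 7, and minus-strand window chr1:183850001-183900000, which adjoins 2 members, had 2, 8, 1 and 6. Among windows with no summit in 1 library, the highest sums were 13, in the plus-strand windows chr17:46350001-46400000 (0, 5, 2 and 6) and chr14:22350001-22400000 (3, 3, 0 and 7). The library that fell short differed from window to window. Of the 497 windows with 1 summit in 1 library and 2 or more in the others, EZH2 replicate 1, the shortest list, was the low one in 159, EZH2 replicate 2 in 123, SUZ12 replicate 1 in 112 and SUZ12 replicate 2 in 103.

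A few features of the lists touch members. Of 37 peaks that ended on a multiple of 10 kb, 7 lay in members, as did 2 of the 28 peaks wider than 3 kb, in EZH2 replicate 1 on chromosome 15 and EZH2 replicate 2 on chromosome 7. None of the 22 peaks whose name carried a mark for a failed FDR was in a member.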
